A study of Mus musculus with 9 samples.

Results

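The 10 genes described here mark granule cells of the cerebellum: Cbln3, Gabra6, Cbln1, Neurod1, Zic1, Zic2, Fat2, Pax6, Gabrd and En2. Each was read from the deposited array values through the probe set whose single gene symbol is that gene, and each of the 10 had 1 such probe set, among 19938 genes with a single symbol in all. They are known granule cell markers that were selected on their signals in these same 9 arrays, so their levels array by array are a description and carry no test.

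Granule cells are small excitatory neurons that fill the inner layer of the cerebellar cortex and are the most numerous neurons of the mouse brain. Their axons, the parallel fibres, make synapses with Purkinje cells, and cerebellins released by the granule cell hold these synapses together. Golgi cells inhibit granule cells through GABA-A receptors that contain the alpha6 and delta subunits. In RNA of bulk tissue, a lower level can come from fewer cells of a type or from less RNA in each cell, and these cannot be told apart.

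The arrays measured brain RNA of mice in 3 groups, with 3 arrays in each, collected after a Morris water maze test. The HPYD group was APP/PS1 transgenic mice on a C57/6J background that received HPYD, a short peptide designed to break the beta-sheets of amyloid, through the nose at 33 mg/mL and 5 μL a day for 30 days. The model group was APP/PS1 transgenic mice given the same daily volume of saline, and the control group was C57/6J mice of the same age given saline. APP/PS1 mice, which form amyloid plaques from transgenes for amyloid precursor protein and presenilin 1, were bought at 8 months of age. The sources used here do not give the promoters of the transgenes, the sex of the mice or the part of the brain that was taken. They also do not say whether the 3 arrays of a group stand for 3 mice, so the p-values cover the spread between arrays, which may be technical, and 3 arrays a group limit the precision.

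All values are log2 signals, so a difference of 1 is a doubling. The median over all probe sets lay between 6.69 and 6.82 in every array, and the neuronal gene Snap25 lay between 13.08 and 13.27. Syt1 was less even, at 12.40 in the array labelled HPYD 3 and 12.37 in model 2, against 12.87 to 12.98 elsewhere. Of 8 general brain genes measured, 3 were lowest in both of these arrays, among them Snap25 and Syt1, as were 14.1% of all genes. One array went against its label. The array labelled HPYD 3 had an App level of 12.53, against 12.98 and 13.01 in HPYD 1 and HPYD 2, 12.95 to 13.02 in the model group and 12.56 to 12.62 in the control group. Its Cst7, a cystatin of microglia around plaques, was 6.21, against 10.04 and 9.46 in the other HPYD arrays, 8.14 to 9.75 in the model group and 5.498 to 6.40 in the control group. Prnp was 11.52 in that array, against 12.54 and 12.47 in the other HPYD arrays. It was 12.42 to 12.55 in the model group and 11.76 to 11.81 in the control group. Xist, transcribed from the inactive X chromosome of females, was 5.22 in the array labelled HPYD 3, 11.18 to 11.78 in the other 5 arrays labelled APP/PS1 and 5.20 to 5.69 in the control group, while the Y-linked Kdm5d ran the other way. For these genes that array therefore lay with the control arrays, and the median of each comparison it enters is also given without it. Since the remaining arrays of both APP/PS1 groups differed from the control group in Xist and Kdm5d, genotype and sex cannot be told apart.

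Promoter sequence was available for 6 of the 10 genes in RefSeq on the mouse build GRCm38.p6, as 7 windows of 250 bases that end just before the start of transcription. Cbln3 and Gabra6 are shown because they had the widest range over the arrays. Capitals mark the half-site of nuclear factor I, TTGGC, or its reverse complement GCCAA, a motif chosen because nuclear factor I proteins are known in mouse to act on granule cell maturation. The Cbln3 window is chr14:55884257-55884506 and the Gabra6 window chr11:42321073-42321322, both on the minus strand and written 5′ to 3′.
Cbln3: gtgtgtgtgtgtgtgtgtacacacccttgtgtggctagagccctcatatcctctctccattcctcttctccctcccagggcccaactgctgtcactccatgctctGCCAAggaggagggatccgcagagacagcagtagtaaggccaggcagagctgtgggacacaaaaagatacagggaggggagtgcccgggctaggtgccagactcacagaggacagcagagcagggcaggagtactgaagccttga
Gabra6: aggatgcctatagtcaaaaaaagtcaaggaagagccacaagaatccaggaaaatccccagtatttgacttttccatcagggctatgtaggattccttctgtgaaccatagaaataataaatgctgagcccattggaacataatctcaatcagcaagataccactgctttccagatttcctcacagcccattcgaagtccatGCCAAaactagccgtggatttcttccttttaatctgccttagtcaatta
The half-site began 145 bases before the start in Cbln3 and 49 bases before it in Gabra6. Searched on both strands, it was present in 3 of the 7 windows, the third being that of Zic1, against 41.5% of 32851 windows of the same length over all genes. The E-box CANNTG, the motif bound by Neurod1 and its relatives, was present in 5 of the 7 windows, against 66.2% of all windows. No half-site overlapped an E-box in these windows. These matches describe the letters of the windows and are not binding sites that were measured.

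The levels of the granule cell genes separated the arrays one by one more than by group. The array labelled HPYD 3 and the array model 2 held both of the highest levels for 9 of the 10 genes, which was the case for 14.2% of all genes. Gabrd was the exception. The plot of each gene by array shows this gap, and below it a graded order in which HPYD 2, model 1 and model 3 lay above HPYD 1 and the control arrays for Cbln3, Gabra6, Neurod1, Fat2, Pax6 and En2.

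**Figure D1:**
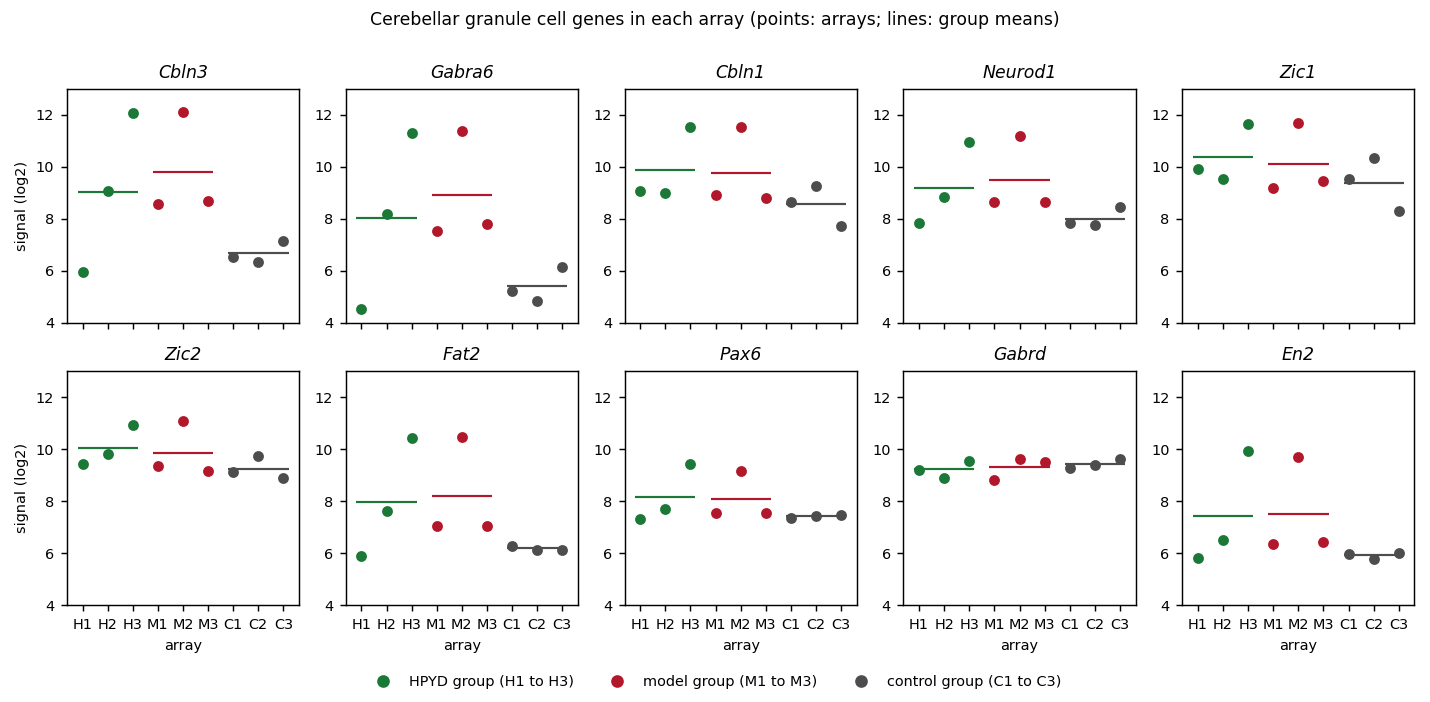
Log2 signal (vertical axes) of the 10 granule cell genes in each of the 9 arrays (horizontal axes), with arrays as points and group means as lines. H3, the array labelled HPYD 3, and M2 lie above the other 7 arrays in every panel but that of Gabrd, for Gabra6 at 11.29 and 11.35 against at most 8.20 in the others.

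Gabra6 and Gabrd encode the GABA-A receptor subunits that mark granule cell inhibition. Gabra6, which in the mouse brain is made almost only by granule cells, was 4.54, 8.20 and 11.29 in HPYD 1, HPYD 2 and the array labelled HPYD 3, 7.51, 11.35 and 7.81 in model 1 to 3, and 5.23, 4.85 and 6.14 in control 1 to 3. Whether the lower levels exceed background is not known, since no detection calls were used. The order of low levels is therefore uncertain, and differences from the control arrays given below may rest on background. All model arrays lay above all control arrays, while the HPYD arrays ran from among the lowest to nearly the highest of the 9. Gabrd, a subunit that is also made in the dentate gyrus and other forebrain regions, was 9.22, 8.91 and 9.57 in HPYD 1, HPYD 2 and the array labelled HPYD 3, 8.81, 9.64 and 9.52 in the model arrays, and 9.30, 9.39 and 9.64 in the control arrays. Its range over all 9 arrays was 0.83, against 6.82 for Gabra6, and all groups overlapped.

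Cbln3 and Cbln1 encode secreted cerebellins, which bridge parallel fibres to Purkinje cells at their synapses. Cbln3, the member made almost only by granule cells, was 5.95, 9.07 and 12.06 in HPYD 1, HPYD 2 and the array labelled HPYD 3, 8.56, 12.11 and 8.67 in the model arrays, and 6.52, 6.34 and 7.14 in the control arrays. Cbln3 ordered the arrays as Gabra6 did at the top, with HPYD 2, model 3 and model 1 next, and HPYD 1 was low for both. Cbln1, which thalamic neurons also make, was 9.05, 8.97 and 11.53 in HPYD 1, HPYD 2 and the array labelled HPYD 3, 8.92, 11.53 and 8.80 in the model arrays, and 8.64, 9.27 and 7.73 in the control arrays. Apart from the 2 highest arrays its levels followed another order, with control 2 the highest of the remaining 7 and control 3 the lowest.

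Fat2 encodes a giant cadherin of parallel fibres. It was 5.90, 7.61 and 10.43 in HPYD 1, HPYD 2 and the array labelled HPYD 3, 7.04, 10.49 and 7.04 in the model arrays, and 6.30, 6.13 and 6.14 in the control arrays. The control arrays were close together (6.19 ± 0.09, SD, n = 3), and all model arrays lay above them, while HPYD 1 lay below them. En2, the engrailed homeobox factor that patterns the midbrain and hindbrain border, was 5.82, 6.50 and 9.94 in HPYD 1, HPYD 2 and the array labelled HPYD 3, 6.37, 9.70 and 6.45 in the model arrays, and 5.97, 5.80 and 6.01 in the control arrays. Below the 2 high arrays its levels spanned 0.70, with the model arrays again above all control arrays (5.93 ± 0.11, SD, n = 3).

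Neurod1, Pax6, Zic1 and Zic2 encode transcription factors of granule cells and of their precursors in the rhombic lip. Neurod1, a bHLH factor that drives granule cell differentiation, was 7.84, 8.81 and 10.93 in HPYD 1, HPYD 2 and the array labelled HPYD 3, 8.65, 11.17 and 8.64 in the model arrays, and 7.83, 7.74 and 8.44 in the control arrays. Pax6, a paired-box factor that is also made in the forebrain, was 7.33, 7.70 and 9.43 in HPYD 1, HPYD 2 and the array labelled HPYD 3, 7.57, 9.17 and 7.57 in the model arrays, and 7.37, 7.44 and 7.49 in the control arrays. For both genes the 3 model arrays lay above the 3 control arrays, with a margin that was small for Pax6, whose 7 lower arrays spanned 0.37.

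Zic1, a zinc finger factor of granule cell precursors that is also made in parts of the thalamus and septum, was 9.92, 9.53 and 11.64 in HPYD 1, HPYD 2 and the array labelled HPYD 3, 9.17, 11.66 and 9.45 in the model arrays, and 9.51, 10.32 and 8.31 in the control arrays. Its neighbour in the family, Zic2, was 9.44, 9.81 and 10.94 in HPYD 1, HPYD 2 and the array labelled HPYD 3, 9.34, 11.11 and 9.17 in the model arrays, and 9.12, 9.74 and 8.88 in the control arrays. The groups overlapped for both genes, and among the 7 lower arrays control 2 was the highest for Zic1 and HPYD 2 for Zic2.

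Over the 10 genes, the median difference from each gene's own median over the 9 arrays was -0.40 in HPYD 1, 0.15 in HPYD 2 and 2.42 in the array labelled HPYD 3. It was 0.00, 2.54 and 0.00 in model 1 to 3, and -0.36, -0.35 and -0.73 in control 1 to 3. The same median over all 19938 genes lay between 0.00 and 0.01 in every array. The 2 high arrays were also close to each other gene by gene, with differences between them of at most 0.25 in either direction. Among the other 7 arrays, HPYD 2 was the highest for 7 genes, control 2 for Cbln1 and Zic1 and control 3 for Gabrd. A single array has no replicate, so the order of neighbours within a group has no error of its own.

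Genes of other cerebellar cells stood high in the same arrays. All 13 measured Purkinje cell genes were highest in the array labelled HPYD 3 and model 2, with list medians of 1.59 and 1.78 in these arrays and between -0.21 and 0.19 in the others. The calcium buffer Calb1 was 11.15, 11.18 and 12.13 in HPYD 1, HPYD 2 and the array labelled HPYD 3, 11.07, 12.06 and 11.05 in the model arrays, and 11.18, 11.16 and 11.16 in the control arrays. Calb1, Pvalb, Rgs8 and Rora, the Purkinje cell genes with the highest signals, had the same 2 arrays on top. Their levels in the other 7 arrays spanned 0.13 for Calb1, 0.53 for Rgs8 and 1.17 for Pvalb, and Calb1 and Pvalb are also made by forebrain neurons. Of 5 Bergmann glia genes, 4 were highest in both arrays, the exception being Fabp7 with its highest level of 12.24 in model 1. Of 7 genes of cerebellar interneurons and unipolar brush cells, 6 were highest in both, among them the glycine transporter Slc6a5 at 10.74 and 11.24, against 9.04 or less elsewhere. The glutamate receptor Grm2, which the cortex also makes, was instead lowest in both. Glra1, a brainstem gene described below, was highest in the same 2 arrays, at 10.47 and 11.08. The part of brainstem tissue in the level of Slc6a5 was not tested.

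A further 12 genes known from granule cells behaved alike, with 11 highest in both arrays and list medians of 0.98 in the array labelled HPYD 3 and 0.77 in model 2. The Rac regulator Chn2 was 10.47, 10.59 and 12.17 in HPYD 1, HPYD 2 and the array labelled HPYD 3, 10.35, 12.21 and 10.56 in the model arrays, and 10.36, 10.60 and 9.94 in the control arrays. Etv1 and Calb2 had the same 2 arrays on top. The exception was Slc17a7, the vesicular glutamate transporter VGLUT1, which granule cells share with cortical and hippocampal neurons and which was lowest in both, at 11.45 and 11.09 against 11.76 to 12.40 elsewhere. All of these lists were drawn up with earlier results of these arrays known.

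Forebrain genes ran the other way. All 11 measured were lowest in the array labelled HPYD 3 and model 2, as were 14.1% of all genes, with list medians of -1.20 and -1.27 there and between -0.05 and 0.24 in the other 7 arrays. Tbr1, a factor of deep-layer cortical neurons, was 9.56, 9.66 and 7.34 in HPYD 1, HPYD 2 and the array labelled HPYD 3, 9.85, 7.44 and 9.96 in the model arrays, and 9.72, 9.77 and 10.33 in the control arrays. Camk2a, Nrgn and Lhx2 had the same 2 lowest arrays, with Camk2a at 12.02 and 12.08 against 12.92 to 13.06 elsewhere. The 7 lower arrays did not show this mirror image to the same extent, since HPYD 2, with the third highest Gabra6 level, had a forebrain median of 0.00 and HPYD 1, with a low Gabra6 level, had -0.05. The part of tissue composition in these levels was not tested.

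**Figure D2:**
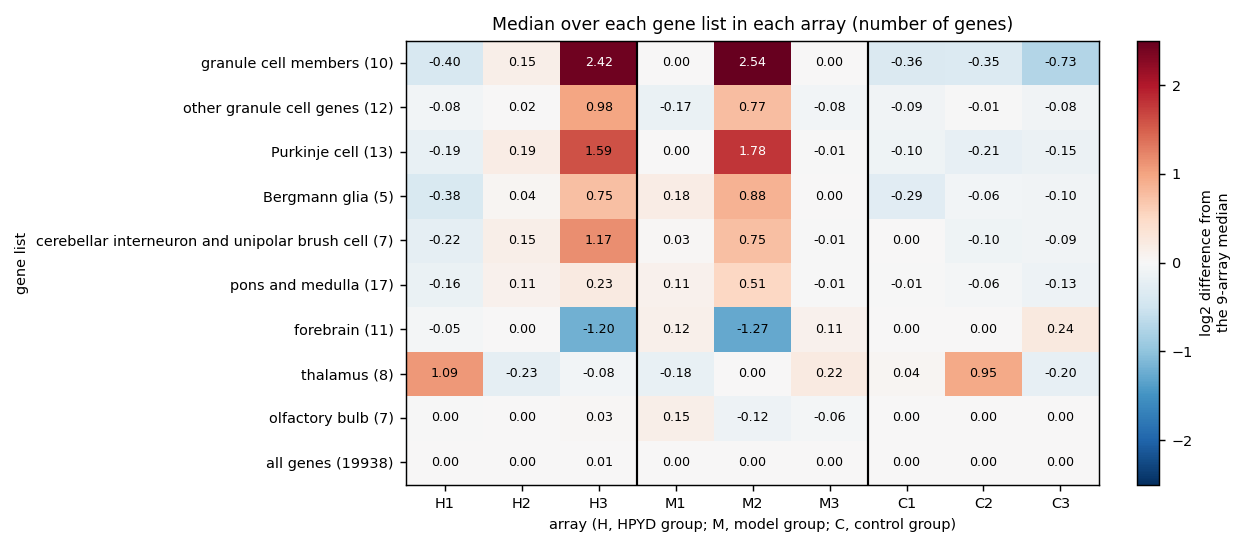
Median over the genes of each list (rows, number of genes in brackets) of the log2 difference from each gene's 9-array median, for each array (columns); red is above and blue below. The cerebellar rows are high and the forebrain row low in H3, the array labelled HPYD 3, and in M2, while the thalamus row is high in H1 at 1.09 and in C2 at 0.95.

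The second order seen for Cbln1 and Zic1 lay beside that of thalamic genes. Thalamic genes had list medians of 1.09 in HPYD 1 and 0.95 in control 2, against -0.23 to 0.22 in the other 7 arrays. Prkcd, a kinase of thalamic relay neurons, was 10.48, 8.83 and 9.39 in HPYD 1, HPYD 2 and the array labelled HPYD 3, 8.85, 9.24 and 9.89 in the model arrays, and 8.997, 10.51 and 8.28 in the control arrays. Apart from the array labelled HPYD 3 and model 2, control 2 and HPYD 1 were also the highest arrays for Zic1 and Cbln1, and control 3 was the lowest for Prkcd, Zic1 and Cbln1. Gabra6 and Cbln3 were not high in HPYD 1 or control 2. The part of thalamic tissue in the levels of Zic1 and Cbln1 was not tested.

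Of the granule cell genes, Cbln1, Cbln3 and Gabra6 stood apart from most of their gene families, while Gabrd did not. Of 4 cerebellins, Cbln1 and Cbln3 were highest in the array labelled HPYD 3 and model 2, while Cbln2 and Cbln4 were lowest in both. Cbln2, a cerebellin of forebrain and brainstem neurons, was 9.62, 8.63 and 7.99 in HPYD 1, HPYD 2 and the array labelled HPYD 3, 8.86, 8.28 and 9.25 in the model arrays, and 9.17, 9.30 and 9.01 in the control arrays. Of 13 GABA-A receptor subunits measured, Gabra6 was the 1 highest in both arrays, and 5 were lowest in both, namely Gabra3, Gabra4, Gabra5, Gabrb1 and Gabrg3. Gabra4, a subunit of thalamus, striatum and hippocampus, was 11.13, 10.54 and 9.52 in HPYD 1, HPYD 2 and the array labelled HPYD 3, 10.61, 9.52 and 11.04 in the model arrays, and 10.87, 11.17 and 10.96 in the control arrays. Gabrb2, the beta subunit that granule cells share with much of the brain, lay between 11.44 and 11.69 in all 9.

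**Figure D3:**
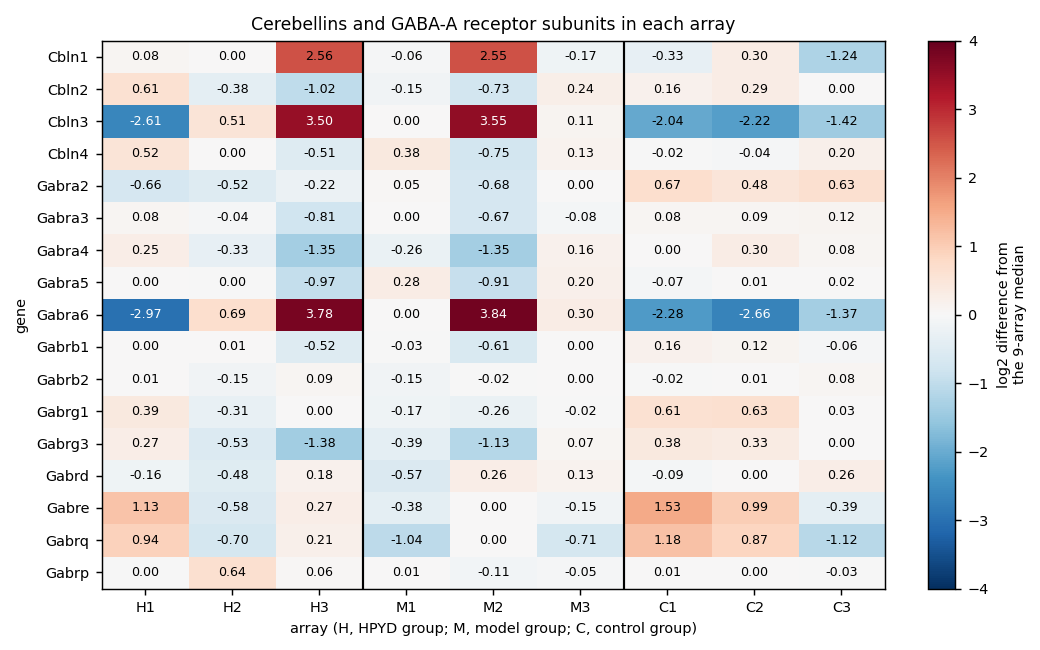
Log2 difference from the 9-array median (colour and printed value) of the cerebellins and GABA-A receptor subunits measured (rows) in each array (columns). Gabra6, Cbln3 and Cbln1 are red in H3, the array labelled HPYD 3, and in M2, where Gabra4 is at -1.35 in both.

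The genes most like the 10 were sought among 3504 other genes with a mean signal at or above the median gene and a range of at least 0.5. Both conditions were taken over all 9 arrays, so a gene could meet them through the 2 high arrays alone. The genes found are therefore a description and carry no test. Likeness was Pearson's r over the 9 arrays with the mean difference of the 10 genes from their 9-array medians. The 10 closest were Il16, Kank2, Homer3, Gdf10, Pcp2, Arhgef33, Smarcd2, Car8, Atp2a3 and Chd7, with r between 0.984 and 0.995. The 9 points share the 2 high arrays, which set most of the range, and over the other 7 arrays alone r was between 0.794 and 0.972. Homer3, Pcp2 and Car8 are known from Purkinje cells and Gdf10 from Bergmann glia. Il16, a gene with a neuronal form known from cerebellar granule cells, was 6.71, 7.90 and 10.02 in HPYD 1, HPYD 2 and the array labelled HPYD 3, 7.69, 10.15 and 7.51 in the model arrays, and 6.58, 6.83 and 6.83 in the control arrays.

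Comparison of the HPYD group with the model group asked what the peptide changed in transgenic mice. Each group held 1 of the 2 high arrays, and their values for the granule cell genes overlapped throughout. In limma, none of the 10 genes reached the threshold of an adjusted p under 0.05, and neither did any other gene (0% called, with 393 genes and 0 of the 10 under an unadjusted p of 0.05). The mean was higher in the HPYD group for 4 of the 10, against 57.5% of all genes, and none lay entirely above the model group, against 2.24% of all genes. The median difference was -0.09 over the 10 genes and 0.02 over all genes. Gabra6 averaged 8.01 ± 3.38 in the HPYD group and 8.89 ± 2.14 in the model group (SD, n = 3 each), a difference of -0.88 with a standard error of 1.64 (adjusted p = 1 in limma). The sign of the median turned with single arrays. Without the array labelled HPYD 3 it was -0.95, with 0 of 10 genes higher and Gabra6 at -2.52, and without model 2 it was 0.70, with 10 of 10 higher. It was 0.50 without HPYD 1 and 0.17 without HPYD 2, and -0.18 without both high arrays.

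Comparison of the model group with the control group was meant to ask what the transgenes changed, but genotype and sex cannot be told apart in it. The mean was higher in the model group for 9 of the 10 genes, against 45% of all genes, the exception being Gabrd. Cbln3, Gabra6, Neurod1, Fat2, Pax6 and En2 lay higher in every model array than in every control array, a separation that 4.83% of all genes showed. The median difference was 1.34 over the 10 genes and -0.01 over all genes. None of the 10 passed the threshold in limma, and neither did any other gene (0% called, with 980 genes and 0 of the 10 under an unadjusted p of 0.05). Gabra6 averaged 8.89 ± 2.14 in the model group and 5.41 ± 0.66 in the control group (SD, n = 3 each), a difference of 3.48 with a standard error of 1.64 (adjusted p = 0.859 in limma). Cbln3 averaged 9.78 ± 2.02 in the model group and 6.67 ± 0.42 in the control group, a difference of 3.11 with a standard error of 1.49 (adjusted p = 0.859 in limma). Whether the control levels of Gabra6 and Cbln3 exceed background is not known, so the size of both differences is uncertain. Even complete separation of 3 arrays from 3 gives an exact two-sided permutation p of 0.1, the smallest possible. Without model 2 the median was 0.40, with 8 of the 10 genes higher, Gabra6 at 2.25 and Cbln3 at 1.95. Zic1 then turned to -0.07, against 0.71 with all arrays.

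Genes of other tissues were high in single arrays of the groups compared. Skeletal muscle genes had list medians of 2.46 in model 1, 4.07 in model 2 and 0.79 in HPYD 2, against -0.18 to 0.00 in the other 6 arrays. For model against control, the mean was higher for all 10 of them. Granulocyte genes had medians of 3.32, 3.75 and 2.60 in model 1, model 2 and HPYD 2, against -0.85 to 0.02 in the others, and for model against control the mean was higher for all 8. Without those 3 arrays, which leaves model 3 alone in the model group and HPYD 1 beside the array labelled HPYD 3 in the HPYD group, the median of the granule cell genes was 0.39 for model against control, and 0.92, opposite in sign to the value with all arrays, for HPYD against model. The array labelled HPYD 3 held a granulocyte median of 0.00 and a muscle median of -0.05 together with a granule cell median of 2.42. The part of these tissues in the group differences was not tested.

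Comparison of the HPYD group with the control group gave higher means for 9 of the 10 genes, against 54.2% of all genes, with Gabrd again the exception. No gene of the 10 lay entirely above the control group, against 4.78% of all genes, since HPYD 1 lay among or below the control arrays. The median difference was 1.25 over the 10 genes and 0.01 over all genes, and no gene passed the threshold in limma (0% called, with 646 genes and 0 of the 10 under an unadjusted p of 0.05). Cbln3 averaged 9.02 ± 3.06 in the HPYD group and 6.67 ± 0.42 in the control group (SD, n = 3 each), a difference of 2.36 with a standard error of 1.49 (adjusted p = 0.860 in limma). Without the array labelled HPYD 3 the median was 0.36, with 9 of the 10 genes higher and a Cbln3 difference of 0.84. Pituitary genes moved with this comparison, with a higher mean for 6 of 6 and a median of 2.23, and for model against control the mean was also higher for 6 of 6, with a median of 1.66. Forebrain genes had a lower mean in the HPYD group for 11 of 11, with a median of -0.54. The part of these in the result was not tested. The 3 comparisons share arrays, so their values are not independent of each other.

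**Figure D4:**
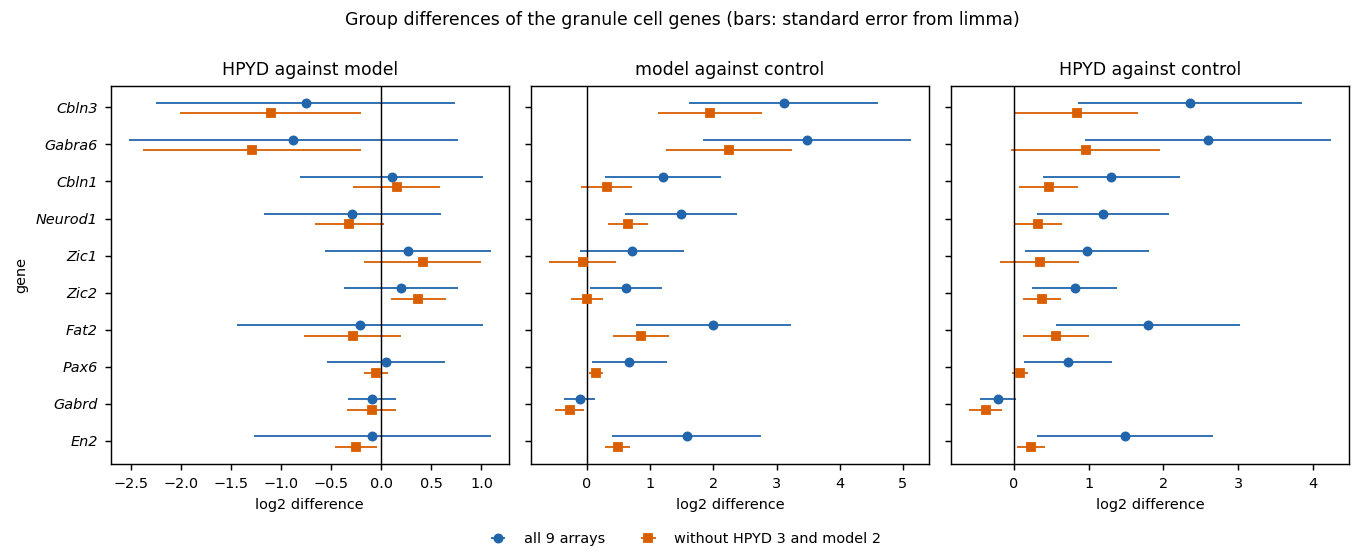
Log2 difference between groups (horizontal axes) for each granule cell gene (rows), with all 9 arrays in blue and without the array labelled HPYD 3 and model 2 in orange; bars are standard errors from limma. For model against control Gabra6 is at 3.48 with all arrays and at 2.25 without the 2 high arrays.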

How the data were processed

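Affymetrix Mouse Gene 1.0 ST arrays were used, and sample titles gave the groups. The authors deposited 1 table of log2 values, with a row for each probe set and a column for each array. MAS5 is named in the submitters' processing notes with no version. How background was corrected and the arrays normalized is not stated in those notes or in the methods, so neither step could be repeated, and no detection calls were used.

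Of 35556 probe sets, 21789 had 1 gene symbol in the platform's annotation, 1621 had several and 12146 had none, and only the first kind was used. Entrez identifiers of 21698 matched RefSeq genes, which changed 0 symbols. For 999 genes with several probe sets, that with the highest mean signal stood for the gene. All value columns were used (0 left out). Exactly equal values in 2 or more arrays occurred for 48.5% of genes, and for Pax6 among the granule cell genes (model 1 and model 3).

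The 3 groups were fitted together in R 4.3.3 with limma 3.58.1, with no covariate and 6 residual degrees of freedom, and p-values were adjusted by Benjamini-Hochberg over all 19938 genes. The fit was tested on simulated data with planted changes. Each gene's spread was drawn towards the typical one there, so that test was easier than these data for genes with a wide spread, such as Gabra6. Alternatives were other normalizations, leaving out the dimmest 33.3% of genes, other variance models, array weights, fewer arrays, other probe set rules, a replicate block and the one-way ANOVA with Student-Newman-Keuls test of the study's methods. The 10 genes and all lists were chosen with earlier results of these data known. Named were all 10 genes, the subunits of both families, up to 4 genes of each other list by highest mean, the 10 most alike genes and the label checks.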

Additional observations from a re-analysis of the deposited data

How the results depend on the processing

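No granule cell gene passed the adjusted threshold under any alternative. Under an unadjusted p of 0.05 in limma, 2 of the 10 passed for model against control in several alternatives. These were array weights (1734 of all 19938 genes passed), only the 6 arrays compared (924), without HPYD 1 (923) and without the array labelled HPYD 3 (1031). Without that array and model 2, 1 of the 10 passed, beside 748 of all genes. For HPYD against control without HPYD 1, 3 of the 10 passed, beside 1807 of all genes. The median of HPYD against model (-0.09) turned its sign with array weights (0.18) and without model 1, model 2 and HPYD 2 together (0.92), which leaves 1 model array. Leaving out 1 array at a time it ranged from -0.95 (the array labelled HPYD 3 out) to 0.70 (model 2 out), and was positive also without HPYD 1 (0.50) or HPYD 2 (0.17). For model against control the median kept its sign, from 0.40 without model 2 to 1.79 without model 3, and for HPYD against control from 0.36 without the array labelled HPYD 3 to 1.79 without HPYD 1. Over all genes, 0 were called for model against control with all arrays, 5 with only the 6 arrays compared, 0 to 7 with 1 array left out (7 without the array labelled HPYD 3) and 15 without that array and model 2, an alternative chosen after seeing the data. For HPYD against control 0 were called with all arrays, 0 to 8 with 1 array left out (8 without the array labelled HPYD 3) and 18 without both. The replicate block left the medians at -0.09, 1.34 and 1.25 with 0 genes called, and the numbers did not pair the arrays, as same-numbered arrays had correlations of -0.32 to 0.18 over 9 pairs. The ANOVA of the methods called 0 genes after adjustment and, unadjusted, 137, 287 and 241 genes in the 3 comparisons but 0 granule cell genes. The median level of a control array depended on the summary. For control 1 it was -0.72 as a mean over the genes, -0.0922 against the control mean, which centres the control arrays near 0 by construction, and -0.78 without Gabrd, Pax6, Zic1 and Zic2. For control 2 these values were -0.60, -0.0574 and -0.91, and for control 3 the last 2 were 0.0696 and -1.07. The cause of the other changes was not tested. The signal background of the arrays is not given.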

Other observations

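Genes of the pons and medulla, which adjoin the cerebellum, were mostly Hox genes with low signals. Whether these signals exceed background is not known. Of 17 measured, 9 were highest in the array labelled HPYD 3 and model 2, against 14.2% of all genes. None were lowest in both, against 14.1% of all genes. The list medians were -0.16, 0.11 and 0.23 in HPYD 1, HPYD 2 and the array labelled HPYD 3, 0.11, 0.51 and -0.01 in model 1 to 3, and -0.01, -0.06 and -0.13 in control 1 to 3. Glra1, the glycine receptor subunit of brainstem and spinal cord, was 8.998, 9.02 and 10.47 in HPYD 1, HPYD 2 and the array labelled HPYD 3, 8.22, 11.08 and 7.29 in the model arrays, and 8.39, 8.59 and 6.44 in the control arrays. Olfactory bulb genes as a list did not set the array labelled HPYD 3 and model 2 apart, with list medians between -0.12 and 0.15 in all 9 arrays. Of 7 measured, 0 were highest in both, against 14.2% of all genes, and 1 was lowest in both, against 14.1%. The latter was Cdhr1, at 6.44 and 6.04 against 6.88 or more elsewhere. Some of these genes had low signals that hardly varied over the arrays, so a difference could be missed.

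Choroid plexus and pituitary genes split the arrays in further ways. Ttr, the transthyretin that the choroid plexus secretes, was 13.20, 9.30 and 13.15 in HPYD 1, HPYD 2 and the array labelled HPYD 3, 12.54, 13.08 and 12.89 in the model arrays, and 9.26, 13.15 and 10.84 in the control arrays. The choroid plexus list median was -1.29 in HPYD 2, -1.06 in control 1 and -1.22 in control 3, and between -0.30 and 0.54 in the other 6 arrays. Gh, the growth hormone of the pituitary, was 13.003 in the array labelled HPYD 3 and 13.13 in model 1, against 6.65 to 11.12 in the other arrays. The pituitary list median was 2.21 and 2.75 in those arrays, so the arrays high in pituitary genes were not the same pair as those high in granule cell genes.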
